A study of Mus musculus with 12 samples.

Results

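Mammospheres from p66Shc knock-out (KO) mice of 12 months were compared with mammospheres from KO mice of 2 months, across all genes that averaged 0.5 CPM or more in the 12 libraries of the series. CPM are read counts relative to library size, here after TMM scaling (a trimmed mean of log ratios between libraries) by the depositors. The comparison used 6 of the 12 libraries, 3 at each age, and 13961 of the 23406 genes in the deposited table. The KO groups came from p66-/- C57BL/6J mice of 2 and 12 months, and the remaining 6 libraries came from C57BL/6J wild-type (WT) mice of the same ages, 3 per age. All 4 groups were mammospheres at passage 2, and no treatment, transgene or Cre is named for any of them. The labels do not tie a library to 1 mouse or culture, so the p-values below measure the spread between libraries, which may be technical. Age and any difference of culture or preparation between the groups cannot be told apart. Changes with age below are thus differences between the 2-month and 12-month groups.

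Mammospheres are spheres that grow when cells of the mammary epithelium are kept in suspension, and they are used to enrich stem and progenitor cells of the gland. Shc1 encodes several Shc adaptor proteins that link receptor tyrosine kinases to Ras signalling, and p66Shc is the longest of them, known for its part in oxidative stress and lifespan. Many inflammatory genes are induced by NF-kB, a transcription factor that is held in the cytoplasm by IkB proteins and that induces CXC chemokines as well as its own inhibitors. Interferons act through STAT and IRF factors on the ISRE, a short promoter element of antiviral genes, and the promoters of many late cell cycle genes hold CCAAT boxes bound by NF-Y.

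The targeted gene was read first. Shc1, summed over all its transcripts, was at 208, 209 and 208 CPM in the 2-month KO libraries and at 170, 162 and 178 CPM in the 12-month KO libraries. The 6 libraries held Shc1 reads at all ages, and the gene-level values do not separate the p66Shc transcript from the others, so they do not check the deletion. The WT means were 296 CPM at 2 months and 211 CPM at 12 months, on columns that were scaled in other TMM runs than the KO columns. Recovered depth ran from 35421697 to 44149907 reads in the 2-month KO libraries, and the 12-month KO libraries held 40385190, 44715125 and 109079737 reads. The lowest correlation of log2 values within a KO group was 0.997 at 2 months and 0.994 at 12 months, and the highest between a 2-month and a 12-month KO library was 0.953.

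The labelled tissue was checked against marker genes. Epithelial genes were present at both ages: Krt18, a luminal keratin, was at 122, 138 and 145 CPM at 2 months and 121, 119 and 116 CPM at 12 months, and Epcam, an epithelial adhesion molecule, was at 62.5, 67.1 and 67.4 CPM against 65.0, 65.6 and 51.5 CPM. Neither passed the test with age in KO, with limma adjusted p = 0.0599 for Krt18 and 0.228 for Epcam, although the Krt18 call was gained in 6 of the alternative analyses given at the end. Markers of fibroblasts summed to between 11667 and 12859 CPM at 2 months and between 10257 and 11430 CPM at 12 months, and markers of luminal epithelium to between 688 and 772 CPM against between 1217 and 1304 CPM. Transcripts of connective tissue cells were thus present in all 6 KO libraries.

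Between the ages 9358 of the 13961 genes differed in KO (67.0%, limma, adjusted p under 0.05 by Benjamini-Hochberg). At 12 months 4589 were higher (32.9% of all tested) and 4769 lower (34.2%). The median log2 fold change over all genes was -0.02. A rise of more than 1 log2 was called for 1111 genes (7.96%) and a fall of that size for 809 (5.79%), and changes beyond 2 log2 numbered 217 rises (1.55%) and 109 falls (0.781%). The 3 libraries of 1 age lay wholly above the 3 of the other for 10182 genes (72.9%), 4924 of them higher at 12 months (35.3%) and 5258 lower (37.7%). With so large a share of genes changed, a single call says little, and the counts of each gene group below are to be read against these percentages. Log2 fold changes are on the log2(CPM + 0.5) scale, which understates those of low genes, and are given with their standard error (SE); plain folds are ratios of group means.

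At the edge of the filter, Aard had a mean of 0.5002 CPM over the 12 libraries and was kept, and Dync1i1 had 0.499 CPM and was not. Insc, the spindle orientation adaptor named in the title of the series, fell just outside with a mean of 0.495 CPM. It was at 0.649, 0.885 and 0.797 CPM at 2 months, from 24, 41 and 31 reads, and at 0.051, 0.213 and 0.135 CPM at 12 months, from 2, 9 and 14 reads. The 3 older libraries lay below the 3 younger ones, with p = 0.1 in an exact two-sided permutation test, the smallest that 3 against 3 libraries allow.

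Promoters of some genes with large shifts are shown first, and the share of promoters in their gene list that hold the motif is given with them. Each window is the 250 bases before the RefSeq transcription start on GRCm38.p6, read 5′ to 3′ on the gene's strand, and capitals mark the match. Of the genes in the reference set, 15179 had a usable window, 9446 of them among the genes tested. Motifs were searched on both strands. The kB motif was its consensus, and the ISRE was a pair of GAAA with 2 free bases between them. The interferon-gamma element GAS was TTC and, after 3 free bases, GAA. The AP-1 site was TGANTCA, the NF-Y box was CCAAT and the E-box was CACGTG. The NRF1 motif was a pair of GCGC with 3 free bases between them; matches of different motifs overlapped in 66 windows (0.43%). Cxcl1, Cxcl2 and Cxcl3, neighbouring genes for neutrophil chemokines, held the same kB match 71, 97 and 73 bases before the start, at chr5:90890995-90891244, chr5:90903649-90903898 and chr5:90785851-90786100, all on the plus strand.
Cxcl1: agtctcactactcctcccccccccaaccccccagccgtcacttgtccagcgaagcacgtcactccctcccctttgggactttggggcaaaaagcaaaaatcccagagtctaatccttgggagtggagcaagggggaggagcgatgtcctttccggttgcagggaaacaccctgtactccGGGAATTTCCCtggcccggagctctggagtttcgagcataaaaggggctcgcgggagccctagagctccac
Cxcl2: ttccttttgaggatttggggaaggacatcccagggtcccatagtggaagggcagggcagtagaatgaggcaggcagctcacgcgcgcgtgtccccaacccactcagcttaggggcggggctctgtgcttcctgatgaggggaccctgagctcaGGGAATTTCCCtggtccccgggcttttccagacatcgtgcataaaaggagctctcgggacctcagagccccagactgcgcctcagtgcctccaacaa
Cxcl3: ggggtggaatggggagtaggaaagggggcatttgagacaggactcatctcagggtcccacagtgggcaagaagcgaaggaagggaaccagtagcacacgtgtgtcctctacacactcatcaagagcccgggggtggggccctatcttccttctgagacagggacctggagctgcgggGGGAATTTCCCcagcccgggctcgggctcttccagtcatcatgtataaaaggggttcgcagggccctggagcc

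A kB match was found in 6 of 19 chemokine promoters (31.6%) and in 10 of 18 promoters of NF-kB subunits and feedback genes (55.6%), beside 8.99% of the promoters of all genes tested. These lists were chosen by function, so their motif shares do not bear on the age shift. Among genes called higher by more than 2 log2 the kB share was 14.3%, and among those called lower by that much 8.33%. The ISRE shares of the same 2 sets were 5.26% and 4.17%. An ISRE match was found in 17 of 37 promoters of interferon effectors (45.9%), beside 2.59% of all tested. Oas3, which makes the short oligoadenylates that switch on RNase L, held it 75 bases before the start (chr5:120777660-120777909, minus strand), and Gbp2, a GTPase against intracellular pathogens, 59 bases before the start (chr3:142620413-142620662, plus strand).
Oas3: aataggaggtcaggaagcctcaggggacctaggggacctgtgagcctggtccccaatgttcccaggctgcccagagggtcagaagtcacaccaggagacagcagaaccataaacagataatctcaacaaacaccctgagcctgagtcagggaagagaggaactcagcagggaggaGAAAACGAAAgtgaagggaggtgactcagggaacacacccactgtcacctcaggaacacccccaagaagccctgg
Gbp2: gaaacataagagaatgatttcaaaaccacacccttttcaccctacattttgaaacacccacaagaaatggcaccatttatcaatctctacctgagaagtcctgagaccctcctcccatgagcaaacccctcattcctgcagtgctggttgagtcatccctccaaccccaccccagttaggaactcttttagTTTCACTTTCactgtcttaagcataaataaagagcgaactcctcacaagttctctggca

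Falling genes of mitosis are represented by Cdc20, the activator of the anaphase-promoting complex (chr4:118437344-118437593, minus strand), and Ube2c, its ubiquitin-conjugating enzyme (chr2:164769679-164769928, plus strand). CCAAT was found in 33 of 42 promoters of G2/M genes (78.6%), beside 36.2% of all tested, and in 12 of 14 promoters of sterol synthesis genes (85.7%), a set that did not fall. A match is a description of these letters and not of a bound site.
Cdc20: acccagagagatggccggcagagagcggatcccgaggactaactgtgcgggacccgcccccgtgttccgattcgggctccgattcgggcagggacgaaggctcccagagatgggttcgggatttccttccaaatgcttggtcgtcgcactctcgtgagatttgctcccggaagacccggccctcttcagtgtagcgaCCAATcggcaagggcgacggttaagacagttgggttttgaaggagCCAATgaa
Ube2c: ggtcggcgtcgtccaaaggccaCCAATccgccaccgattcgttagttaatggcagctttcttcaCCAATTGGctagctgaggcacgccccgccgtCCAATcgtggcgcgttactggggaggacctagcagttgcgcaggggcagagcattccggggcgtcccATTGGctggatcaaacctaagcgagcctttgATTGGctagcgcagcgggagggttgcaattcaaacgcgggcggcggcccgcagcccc

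Chemokine genes moved in both directions. Cxcl1 was at 8.73, 8.46 and 9.82 CPM at 2 months and at 322, 400.0 and 368 CPM at 12 months. Cxcl2 went from 2.81, 3.17 and 2.73 CPM to 75.5, 81.9 and 82.1 CPM, and Cxcl5 from 1.35, 0.95 and 1.31 CPM to 58.5, 73.8 and 52.5 CPM. The ages did not overlap for any of these neutrophil-attracting ligands, as was the case for 72.9% of all genes tested. The rises were 5.26 ± 0.10 log2 for Cxcl1 (SE, limma adjusted p = 7.37e-13), 4.56 ± 0.09 for Cxcl2 and 5.18 ± 0.17 for Cxcl5. Cxcl3, whose promoter is shown above, had at most 3 reads per library at 2 months, with 0.081, 0.065 and 0.051 CPM, and was at 2.30, 3.31 and 2.36 CPM at 12 months. Ccl8, a monocyte attractant, rose from 83.2, 87.2 and 85.7 CPM to 233, 236 and 259 CPM, a fold of 2.84. Among the falls, Pf4, platelet factor 4, went from 18.01, 15.4 and 26.8 CPM to 3.80, 2.27 and 3.73 CPM (-2.44 ± 0.19 log2), and Ccl3 from 11.6, 10.3 and 11.6 CPM to 4.79, 1.91 and 3.65 CPM (-1.64 ± 0.20 log2). In all, 17 of 26 chemokine genes tested were higher and 6 lower, with a median log2 fold change of 0.62.

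Cytokines and their receptors rose more often than they fell, with 28 of 44 called higher and 6 lower and a median of 0.50. Csf3, the granulocyte colony-stimulating factor, was at 0.784, 0.907 and 0.926 CPM at 2 months and at 10.9, 17.5 and 13.7 CPM at 12 months, 3.38 ± 0.16 log2 higher. Il6 was at 6.38, 7.45 and 6.81 CPM and then at 22.6, 50.7 and 22.8 CPM; the second 12-month library stood above its group, and all 3 stood above the younger ones (2.04 ± 0.24 log2, limma adjusted p = 6.28e-06). Receptors of the IL-6 family did not all pass the test. Il6ra, the IL-6 receptor, did not: it was at 18.5, 18.9 and 19.2 CPM and then at 19.8, 20.6 and 20.9 CPM (0.11 ± 0.08 log2, limma adjusted p = 0.220). Il11ra1, the IL-11 receptor, passed narrowly, with a change of 0.27 ± 0.11 log2 (limma adjusted p = 0.0404). The Il11ra1 call was lost without any 1 of the younger KO libraries (0.23 to 0.30), without 12-month KO replicate 3 (0.13) or any 1 of the older WT libraries, with no filter, with quantile scaling (0.20) and in the KO libraries alone. Osmr, the oncostatin M receptor, went from 153, 149 and 148 CPM to 572, 539 and 581 CPM, Lifr, the leukaemia inhibitory factor receptor, was 3.47-fold higher and Il6st, their shared gp130 chain, 2.37-fold higher. Socs3, which is induced by and restrains gp130 signalling, rose from 31.2, 34.0 and 34.2 CPM to 120, 163 and 119 CPM.

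The IL-33 axis rose on both sides. Il33, an alarmin stored in nuclei, was at 252, 268 and 279 CPM at 2 months and 831, 747 and 877 CPM at 12 months, and its receptor Il1rl1 at 426, 429 and 417 CPM against 1817, 2266 and 1798 CPM. The folds were 3.07 and 4.62, and neither gene had overlapping libraries, which also held for 72.9% of all genes tested. Among the falls were Il1rn, the IL-1 receptor antagonist, from 35.9, 32.9 and 33.8 CPM to 12.3, 8.17 and 8.89 CPM (-1.77 ± 0.13 log2), and Il15, which sustains natural killer cells, at 2.71-fold lower.

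Genes of the NF-kB pathway moved 1 way. Of 26 subunits, inhibitors and feedback genes, 23 were called higher and 0 lower at 12 months, with a median of 1.14 log2. All older libraries lay above all younger ones for 24 of them, beside 35.3% of all genes tested. Under edgeR's and DESeq2's count tests and the other alternatives the number called lower was also 0 and the number called higher lay between 21 and 24. Nfkbiz, a nuclear IkB that promotes Il6 and acute-phase transcription, was at 38.9, 42.7 and 39.2 CPM and then at 248, 288 and 282 CPM (2.74 ± 0.07 log2). Tnfaip3, the A20 ubiquitin-editing inhibitor, was at 28.4, 26.1 and 26.0 CPM and then at 163, 180.2 and 186 CPM, a fold of 6.57. Zc3h12a, an RNase that degrades Il6 messenger RNA, rose 4.505-fold, Nfkbie 4.51-fold and Nfkbia 3.92-fold, the latter pair being IkB proteins. The inhibitors and feedback genes named here thus rose in the same libraries, and NF-kB activity itself was not tested.

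Acute-phase genes, secreted in quantity by the liver in inflammation and by many stromal cells, had 15 of 19 called higher and 1 lower, with a median of 1.98 log2. Ptx3, a pentraxin that binds microbes and hyaluronan matrix, was at 10.3, 10.4 and 10.3 CPM at 2 months and 440.4, 533 and 525 CPM at 12 months. That is 5.52 ± 0.08 log2 (limma adjusted p = 6.74e-14), with older libraries 48.3-fold above younger ones. Serine protease inhibitors of the Serpina3 cluster on chromosome 12 were among the rises: Serpina3m from 5.84, 5.76 and 5.66 CPM to 118, 108 and 134 CPM, Serpina3f 29.4-fold, Serpina3i 13.05-fold, Serpina3g 6.59-fold, and Serpina3n from 347, 373 and 336 CPM to 2877, 2887 and 3212 CPM. These genes are close copies of each other, so the division of reads among them is uncertain. Leaving out the low-level filter brought the median of the acute-phase list down to 1.04.

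Complement divided into a rising and a falling set. The list as a whole had 14 of 23 genes higher and 8 lower, with a median of 0.39 log2. The central and activating components rose: C3 was at 52.6, 53.3 and 58.2 CPM and then at 509, 570.2 and 542 CPM (3.29 ± 0.08 log2), C4b at 11.2, 11.9 and 12.2 CPM and then at 172, 198 and 238 CPM, and Cfb, factor B of the alternative pathway, at 8.98, 10.5 and 9.13 CPM and then at 74.0, 92.6 and 88.7 CPM. The initiating proteases Masp1 and C1s rose 4.59-fold and 3.57-fold. The 3 chains of C1q, the recognition molecule that macrophages make, went the other way. C1qa fell from 55.6, 47.0 and 73.4 CPM to 18.1, 9.66 and 25.7 CPM (-1.77 ± 0.28 log2), C1qb was 2.49-fold lower and C1qc 2.82-fold lower, with the second 12-month library lowest for all 3 chains. C3ar1, the receptor for the C3a fragment, fell 3.33-fold.

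Interferon-induced effectors rose almost as a block. Of 51 genes tested, 47 were called higher and 1 lower, with a median of 1.24 log2. Oas3 was at 2.03, 2.35 and 3.34 CPM at 2 months and at 17.3, 24.3 and 19.7 CPM at 12 months (2.77 ± 0.16 log2), and its relative Oas2 at 4.43, 4.25 and 4.86 CPM and then at 19.6, 23.6 and 22.96 CPM. Ifi44 rose 7.08-fold, Gbp2 from 27.3, 29.7 and 28.0 CPM to 131, 119 and 129 CPM, and Rsad2, which makes the antiviral nucleotide ddhCTP, 4.25-fold. No older library overlapped a younger one for these genes, as was the case for 72.9% of all genes tested. The 1 called lower was Pml, the nuclear body scaffold, at -0.19 ± 0.07 log2; its call was lost without 2-month KO replicate 1 (-0.17), without 12-month KO replicate 1 (-0.12) and with quantile scaling (-0.14).

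Upstream of the effectors, 26 of 36 interferon factors and sensors were higher and 5 lower, with a median of 0.77 log2. Zbp1, a sensor of Z-form nucleic acid, was at 3.98, 5.10 and 5.66 CPM and then at 34.6, 37.3 and 40.1 CPM. Nlrc5, the transactivator of MHC class I genes, rose 3.23-fold, Dhx58, a regulator of RIG-I-like sensing, 2.98-fold and Usp18, which removes ISG15 and restrains the receptor, 2.84-fold. Irf8 and Irf5, factors of myeloid cells, fell by 1.014 ± 0.14 and 0.94 ± 0.15 log2. MHC class I and antigen presentation genes had 16 of 21 called higher and 1 lower, with a median of 0.83. H2-K1, a classical class I chain, was at 258, 253 and 280 CPM and then at 517, 597 and 644 CPM, Tapbp, the peptide-loading bridge tapasin, rose 2.74-fold and H2-Q4 3.08-fold; H2-Q10 rose from 0.757, 0.54 and 0.771 CPM to 7.83, 7.63 and 10.7 CPM. Class I genes are near copies, so reads may be divided wrongly among them. The 1 called lower, the chaperone Calr, changed by only -0.13 ± 0.05 log2 and lost its call without 2-month replicate 1 (-0.12) or 2 (-0.12) and without 12-month replicate 1 (-0.11) or 3 (-0.14). The Calr call was also lost without WT 2-month replicate 3, with no filter, with edgeR (-0.12) or DESeq2 (-0.09), and in the KO libraries alone.

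**Figure D1:**
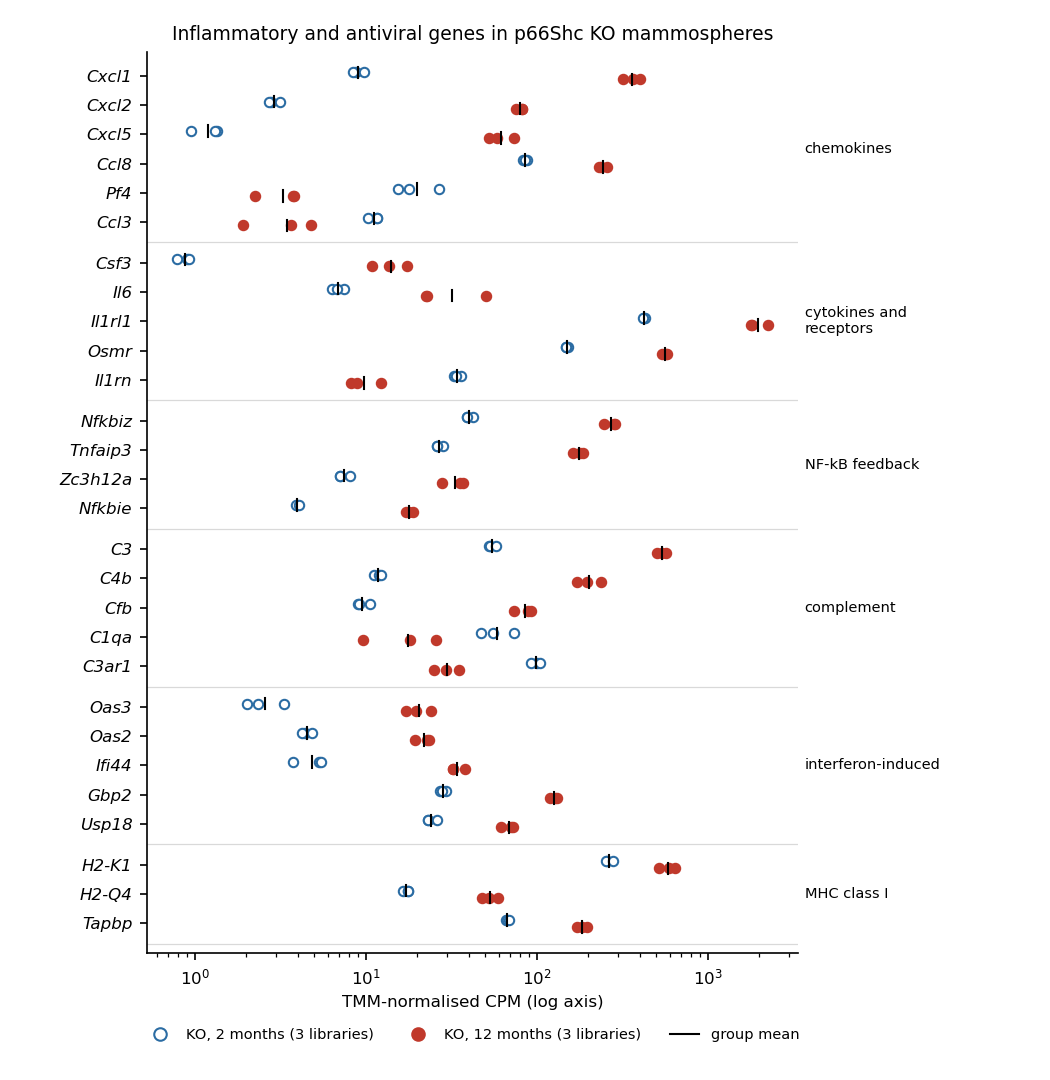
TMM-normalised CPM on a log axis for chemokines, cytokines and receptors, NF-kB feedback, complement, interferon-induced and MHC class I genes. Open points are the 3 KO libraries of 2 months, filled points the 3 of 12 months, and bars the group means. The CXC chemokines, C3 and interferon-induced genes sit to the right at 12 months, and Pf4, Ccl3, Il1rn, C1qa and C3ar1 to the left.

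Marker genes of other cells moved in the same libraries. All 17 of 17 endothelial markers tested rose, and their summed level went from between 139 and 143 CPM at 2 months to between 485 and 548 CPM at 12 months. Mast cell markers rose in 10 of 11 cases, with sums from 38.6 to 40.9 CPM against 207 to 242 CPM. Of 17 leukocyte markers tested, 4 rose (3 to 6 over the alternatives) and 9 fell, and the sum went from between 1061 and 1177 CPM to between 458 and 827 CPM. Of the leukocyte markers under the filter, Cd3e, Cd3d and Nkg7 had no read in the 2-month KO libraries. The part of these shifts in the changes of chemokine, complement and interferon genes was not tested. In RNA of whole cultures, fewer cells of a type and less RNA per cell cannot be told apart.

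Immediate-early genes, transcribed within minutes of growth factor or stress signals, had 22 of 32 called higher and 4 lower, with a median of 1.16 log2. Nr4a1, an orphan nuclear receptor, was at 2.35, 2.42 and 2.42 CPM at 2 months and 37.4, 56.2 and 46.5 CPM at 12 months (4.01 ± 0.12 log2). Fosb, an AP-1 subunit, was at 6.08, 9.997 and 6.63 CPM and then at 92.3, 112 and 122 CPM. Klf2 and Klf4, zinc finger factors of quiescence and differentiation, rose 13.2-fold and 9.65-fold. The older libraries were uniformly high for all of these genes. Dusp4, a phosphatase of MAP kinases, fell 1.67-fold. Myc, another early gene, rose from 11.03, 12.05 and 11.96 CPM to 24.8, 28.7 and 33.3 CPM, although the division genes described below fell.

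Ligands of the EGF receptor did not move as 1. Ereg, epiregulin, was at 12.4, 11.6 and 12.9 CPM and then at 140.4, 123 and 169 CPM, an 11.7-fold rise. Egfr itself rose 1.99-fold and its feedback inhibitor Errfi1 1.97-fold, whereas Btc fell 2.45-fold and Hbegf 2.13-fold. The list had 11 of 16 genes higher and 2 lower, with a median of 0.48. Shc adaptors and their partners, which couple such receptors to Ras, had 5 of 10 higher (50%) and 3 lower (30%), beside 32.9% and 34.2% over all genes. Gab1 and Gab2, docking proteins, rose 2.24-fold and 1.66-fold and Sos1, the Ras exchange factor, 1.56-fold, while Shc1 itself fell by 0.29 ± 0.06 log2 (limma adjusted p = 0.000947).

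Genes of cell division fell. Of 50 G2/M genes 49 were called lower and 0 higher, with a median of -1.55 log2, and of 48 G1/S genes 47 were lower and 0 higher, with a median of -0.95. Cdc20 was at 50.4, 57.8 and 52.3 CPM at 2 months and at 9.36, 12.95 and 8.77 CPM at 12 months (-2.33 ± 0.12 log2, limma adjusted p = 1.91e-09). Cenpa, the centromeric histone, was at 45.8, 46.3 and 44.05 CPM and then at 9.64, 10.5 and 8.94 CPM, and Ube2c was 4.21-fold lower and Kif2c, a kinetochore kinesin, 3.91-fold lower. The older libraries lay below the younger ones for all 4 genes, as they did for 37.7% of all genes tested. Among genes of S phase, Mcm5 of the replicative helicase fell from 116, 107 and 117 CPM to 38.4, 45.2 and 36.8 CPM. Rad51ap1, a recombination factor, fell 2.72-fold, Cdca7 2.62-fold and Clspn, the checkpoint mediator claspin, 2.54-fold. Mki67, the proliferation marker, went from 412, 382 and 346 CPM to 185, 191 and 131 CPM.

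Replication-dependent histones, which are made in S phase, had the lowest median of the 45 lists. Of 52 tested, 47 were called lower and 1 higher, at -2.13 log2; 6 of the 68 listed had no read in any library. The fall held in each class, with 5 of 6 H1 genes lower (median -1.12), 10 of 10 H2A (-1.87), 12 of 13 H2B (-1.92), 9 of 11 H3 (-2.31) and 11 of 12 H4 (-2.46). In the chromosome 13 cluster 40 of 43 were lower. Hist1h4k was at 5.62, 5.03 and 12.0 CPM at 2 months and at 0.204, 0.189 and 0.261 CPM at 12 months, Hist1h2bn at 14.9, 9.004 and 13.99 CPM and then at 0.382, 0.992 and 0.987 CPM, and Hist1h4a fell 13.8-fold. Hist1h2bf, at 8.57, 7.64 and 8.59 CPM and then 0.408, 0.661 and 0.803 CPM, was 13.2-fold lower. Hist2h3c1 was the 1 histone gene that rose, 1.80-fold. Histone genes are near-identical and their messages lack poly(A) tails, so the values rest on the total RNA library kit and on how reads of copies were shared.

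Genes of protein synthesis and respiration fell by less. Of 79 cytosolic ribosomal protein genes 52 were lower and 0 higher (median -0.58 log2), of 74 mitochondrial ribosomal protein genes 63 were lower and 1 higher (-0.35), and of 76 nuclear-encoded respiratory chain subunits 63 were lower and 0 higher (-0.44). Rplp1, an acidic protein of the ribosomal stalk, was at 266, 279 and 337 CPM and then at 116, 84.6 and 188 CPM, and Rps16 and Rps21 of the small subunit were 2.67-fold and 2.26-fold lower. Mrps11 of the mitochondrial small subunit fell from 24.1, 22.3 and 31.5 CPM to 10.6, 11.8 and 15.0 CPM and Mrpl14 1.94-fold. The 1 mitochondrial ribosomal gene higher, Mrps30, rose by 0.18 ± 0.07 log2 at limma adjusted p = 0.0485, and its call was lost without any 1 of the younger KO libraries (0.17 to 0.19) or without 12-month replicate 1 (0.11) or 2 (0.17). It was also lost without WT 2-month replicate 3 or any 1 of the older WT libraries, with no filter, TMM over 12 libraries, thinned reads or edgeR, and in the KO libraries alone. Complex I subunits Ndufb7, Ndufs7 and Ndufa11 fell 2.199-fold, 2.13-fold and 2.03-fold, and Cox7c of complex IV from 10.5, 13.1 and 10.6 CPM to 3.98, 3.92 and 8.82 CPM. For each gene named here with its library values the third 12-month library, the deepest, lay nearest to the younger ones. Ribosomal protein genes have many processed pseudogenes, so their counts are uncertain.

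The proteasome list contained opposite movements. Of 38 subunits 25 were lower and 5 higher, with a median of -0.24. Psmb6, a catalytic subunit of the constitutive proteasome, went from 138, 137 and 155 CPM to 69.7, 81.8 and 94.1 CPM, and Psmb3 fell 1.67-fold. Psmb8 and Psmb9, which replace constitutive subunits in the interferon-induced immunoproteasome, rose 1.98-fold and 1.96-fold.

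Transcript length moved with the age of the KO libraries and is given beside these falls, because histone, ribosomal and respiratory genes are short. Of the genes tested 94.26% matched a GENCODE transcript. The shortest quintile of genes had a median log2 fold change of -0.24 and the longest quintile of 0.25, and 18.3% of the shortest were called higher against 53.7% of the longest. In the 3 older libraries the shortest quintile lay at -0.277, -0.274 and -0.143 log2 from the 2-month mean and the longest quintile at 0.261, 0.266 and 0.194. GC content moved too: the quintile with the highest GC lay at -0.303, -0.202 and -0.061 log2 in these libraries. In WT the shortest and longest quintiles had medians of -0.09 and -0.06 with age. Some lists that rose hold long genes, such as the IGF axis and Notch, with median transcripts of 6323 and 5106 bases beside 3424 over all genes. The part of length and GC content in the falls of these gene groups, and in the rises of lists of long genes, was not tested.

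**Figure D2:**
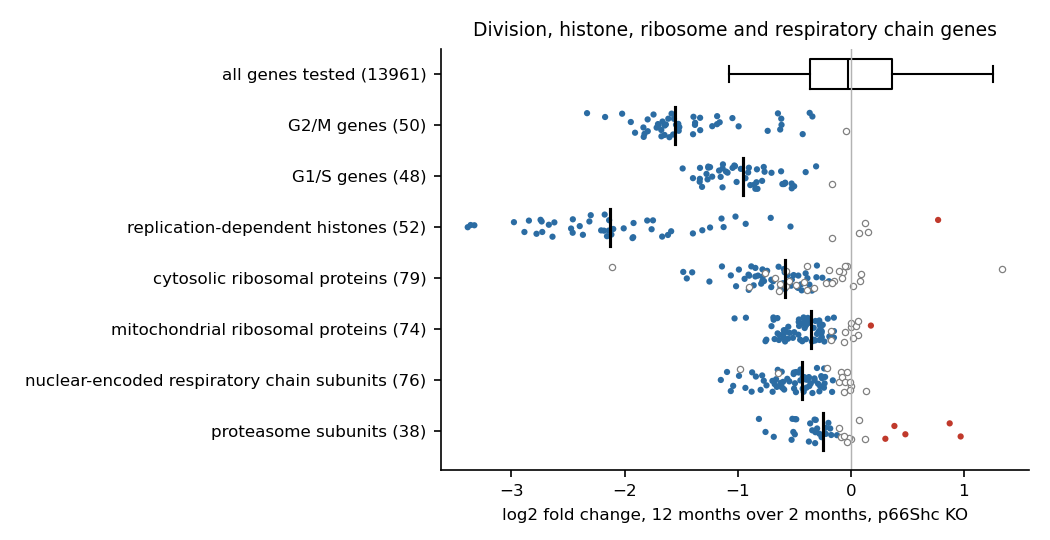
Log2 fold change of each gene at 12 over 2 months in KO, by gene list, with the list's size in brackets and all genes tested for comparison. Histone and G2/M genes lie lowest, with medians of -2.13 and -1.55, and ribosomal and respiratory genes lie between them and the bulk of genes.

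**Figure D3:**
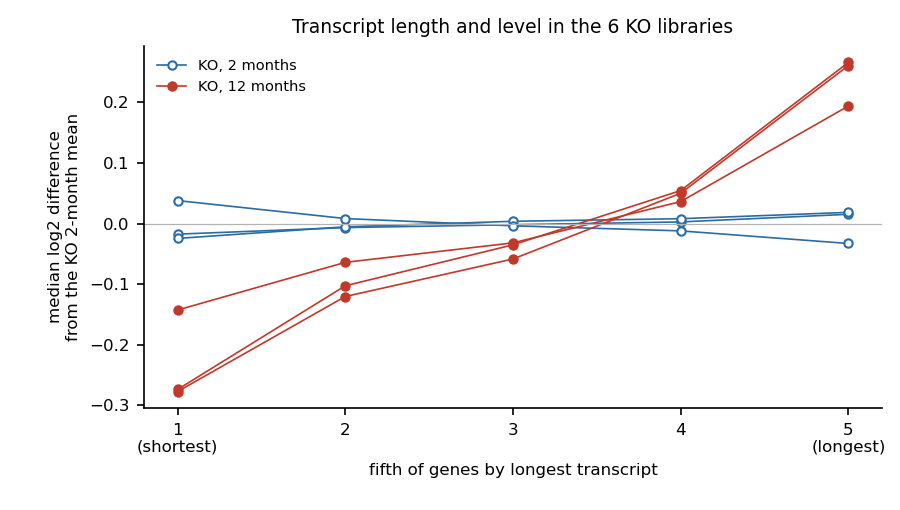
Median log2 difference from the KO 2-month mean (y axis) for quintiles of genes ordered by their longest transcript (x axis), 1 line per KO library. The 3 libraries of 12 months rise from the shortest to the longest quintile, and those of 2 months stay near 0.

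Inhibitors of the cycle and genes tied to senescence or p53 had no common direction. Of 38 genes, 15 were higher (39.47%) and 17 lower (44.74%), beside 32.9% and 34.2% over all genes. Their median was -0.13, or -0.08 without 12-month replicate 1. Igfbp3, an IGF-binding protein secreted by arrested cells, rose from 65.8, 70.3 and 67.2 CPM to 281, 272 and 341 CPM. Cdkn2a, the locus of p16 and p19Arf, fell from 10.5, 10.2 and 13.8 CPM to 2.19, 3.24 and 3.71 CPM (-1.77 ± 0.24 log2). The pro-apoptotic p53 targets Pmaip1 and Bbc3 fell 3.31-fold and 2.82-fold and the inhibitor Cdkn1c 2.49-fold. For each the older libraries lay below all younger ones, as they did for 37.7% of all genes tested. Trp53, which encodes p53, was at 13.4, 15.6 and 13.96 CPM and then at 13.4, 13.8 and 12.6 CPM, and Cdkn1a, which encodes p21, at 146, 158 and 157 CPM and then at 158, 154 and 177 CPM. The ages overlapped for both, and the differences were -0.10 ± 0.08 and 0.08 ± 0.07 log2 (limma adjusted p = 0.250 and 0.279), with a change of sign for Cdkn1a under quantile scaling. Mdm2, the p53 ubiquitin ligase, fell 1.41-fold.

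Spindle orientation genes, which set the plane of division, had 6 of 21 higher (28.57%) and 7 lower (33.33%), close to the shares over all genes, with a median of -0.15, or -0.10 without 12-month replicate 1. Gnai1, the G protein that anchors the complex at the membrane, rose from 3.38, 3.63 and 3.99 CPM to 9.38, 10.1 and 8.53 CPM and Pard3 of the polarity complex 1.46-fold. Gpsm2, the LGN adaptor that INSC and NuMA bind, fell from 54.5, 58.3 and 53.6 CPM to 31.6, 33.7 and 28.1 CPM, and Tpx2, a spindle assembly factor that also belongs to the dividing cell, fell 2.85-fold. Scrib and Dctn1 were 1.65-fold and 1.63-fold lower.

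Proteases of the matrix and their inhibitors moved in both directions. Serpinb2, the plasminogen activator inhibitor PAI-2, was at 10.4, 12.4 and 13.9 CPM and then at 244, 311 and 299.9 CPM. The aggrecanases Adamts5 and Adamts1 rose 6.42-fold and 2.98-fold. Mmp12, the macrophage elastase, fell from 166, 138 and 172 CPM to 35.9, 20.5 and 28.4 CPM and Mmp9, a gelatinase, 7.17-fold. Over the list 16 of 34 genes were higher (47.06%) and 11 lower (32.35%; median 0.14, or 0.08 without 12-month replicate 3).

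Collagens were more often lower, 20 of 38, than higher, 10, with a median of -0.30. Col14a1, a collagen that binds fibril surfaces, went from 18.8, 17.1 and 14.2 CPM to 2.75, 3.47 and 3.16 CPM, Col27a1 fell 4.38-fold, Col24a1 3.51-fold and Col7a1, of anchoring fibrils, 2.90-fold. Col17a1 and Col23a1, transmembrane collagens, rose 3.29-fold and 2.90-fold. The median of the collagens was -0.16 without the filter on low genes and -0.60 among those with a mean of at least 2 CPM. Matricellular and adhesive proteins had 19 of 43 higher and 10 lower (median 0.17): Tnxb, tenascin-X, rose 3.84-fold, Lox, the collagen cross-linking oxidase, from 667, 748 and 588 CPM to 1906, 2119 and 1670 CPM, and the laminin chains Lama4 and Lama2 2.71-fold and 2.45-fold, while Mfap2 and Emilin1 of elastic fibres fell 3.16-fold and 2.62-fold. Proteoglycan and hyaluronan genes had 16 of 25 higher and 4 lower (median 0.38). Prelp rose from 0.811, 0.842 and 0.746 CPM to 12.3, 13.1 and 12.9 CPM, Tnfaip6, which cross-links hyaluronan in inflamed tissue together with Ptx3, from 39.0, 37.3 and 39.3 CPM to 185, 207 and 233 CPM, and the synthase Has1 4.81-fold; Aspn and Hyal2 fell 2.03-fold and 1.69-fold.

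Genes of hypoxia and glycolysis had 26 of 34 higher and 2 lower, with a median of 0.64 log2. Adm, adrenomedullin, a vasodilator peptide, was at 12.0, 15.7 and 13.3 CPM and then at 123, 101 and 129 CPM. Ndrg1 rose 4.26-fold, Epas1, which encodes HIF-2alpha, 3.96-fold, and Bnip3, a mitophagy receptor, 3.99-fold. Eno2, a neuronal enolase, was among the falls, at 1.49-fold lower. Sterol synthesis genes had 13 of 24 higher and 1 lower (median 0.16); Dhcr7 rose 1.74-fold and Nsdhl 1.56-fold. The 1 sterol gene lower, Mvk (-0.50 ± 0.18 log2), lost its call without 2-month replicate 1 (-0.49) or 3 (-0.46) and without 12-month replicate 1 (-0.37) or 2 (-0.49).

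Antioxidant genes were mixed as a list. Both groups compared are p66Shc KO, so these changes do not test the known link of p66Shc with oxidative stress. Of 36 NRF2 targets and antioxidants 11 were higher (30.56%) and 18 lower (50%), beside 32.9% and 34.2% over all genes, with a median of -0.22. Nqo1, the quinone reductase used as a readout of NRF2, was at 106, 117 and 115 CPM and then at 46.2, 46.8 and 37.5 CPM (-1.37 ± 0.08 log2, limma adjusted p = 4.98e-09). Gsta4, a glutathione transferase for lipid aldehydes, fell 4.72-fold and Gpx1, a peroxidase, 2.06-fold. Slc7a11, the cystine transporter that feeds glutathione synthesis, went up from 129, 136 and 131 CPM to 430.3, 399.8 and 364 CPM, and Sod3, the extracellular superoxide dismutase, from 0.676, 0.54 and 0.797 CPM to 5.92, 5.10 and 6.15 CPM. The ages did not overlap in any of these 5 genes, as was the case for 72.9% of all genes tested.

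Of 36 lysosome genes 20 were higher (55.56%) and 3 lower (8.33%), beside 32.9% and 34.2% over all genes, with a median of 0.20. Over the alternatives between 13 and 22 were higher and between 3 and 7 lower. Lgmn, legumain, rose 1.81-fold, Ctso 1.64-fold and Npc1, the lysosomal cholesterol exporter, 1.53-fold, and the macrophage marker Cd68 fell from 61.2, 54.7 and 65.0 CPM to 30.3, 18.6 and 30.6 CPM. Tfeb, a master factor of lysosome genes, was 2.38-fold lower. The unfolded protein and integrated stress response had 15 of 36 higher (41.67%) and 7 lower (19.44%). Its median of 0.05 lay between -0.08 and 0.09 under the alternatives, the negative value with quantile scaling, and was 0.02 without 12-month replicate 2. Ppp1r15a, which restores translation after stress, rose 2.26-fold and Ern1, the IRE1 sensor, 2.02-fold, while Sesn2 and Creld2 fell 2.07-fold and 1.34-fold.

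Signalling pathways of stem and progenitor cells shifted member by member. Notch genes had 12 of 19 higher and 4 lower (median 0.47): the ligand Dll4 rose from 1.35, 1.14 and 1.18 CPM to 5.74, 5.20 and 6.45 CPM and the coactivator Maml2 2.18-fold, while the ligand Jag1 fell 1.77-fold and the target Heyl 1.92-fold. Wnt genes had 15 of 36 higher (41.67%) and 8 lower (22.22%; median 0.15). Rspo3, an R-spondin that amplifies Wnt, went from 15.95, 16.6 and 15.5 CPM to 73.0, 62.5 and 75.8 CPM and its receptor Lgr4 rose 2.67-fold; the Wnt antagonist Sfrp1 rose 2.87-fold and the ligands Wnt2 and Wnt7b fell 1.76-fold and 1.66-fold. Targets of YAP and TAZ, which respond to stretch and cell contact, had 17 of 24 higher and 5 lower (median 0.60). Cyr61 was at 36.4, 40.6 and 33.1 CPM and then at 196, 199 and 235 CPM, Ankrd1 rose 7.95-fold and Amotl2 4.49-fold, and Fjx1 and the partner factor Tead2 fell 2.95-fold and 2.31-fold.

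In the TGF-beta and BMP list 20 of 37 genes were higher and 10 lower, with a median of 0.26. Fst, the activin trap follistatin, was at 7.95, 9.28 and 8.72 CPM and then at 72.7, 76.5 and 67.2 CPM (2.99 ± 0.08 log2), and Chrd, the BMP trap chordin, rose 6.42-fold. The co-receptor Tgfbr3 rose 2.57-fold, whereas the ligand Tgfb3 fell from 79.0, 81.9 and 74.3 CPM to 27.6, 30.99 and 26.3 CPM and the transducer Smad3 1.97-fold. Genes of the IGF axis had 10 of 15 higher and 4 lower (median 0.87). Igf1r, the receptor, rose from 39.0, 42.7 and 39.1 CPM to 164, 161 and 159 CPM, and Pappa2 and Igfbp5, which cleave and bind in the pathway, 2.85-fold and 2.73-fold; the ligand Igf1 fell 1.71-fold and Igfbp4 2.13-fold.

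Markers of epithelium changed unevenly within KO. The luminal list had 19 of 30 higher and 3 lower (median 0.53), and the basal list 10 of 19 higher and 2 lower (median 0.71), with between 5 and 13 higher over the alternatives. Kit, the receptor of luminal progenitors and mast cells, was at 4.11, 4.73 and 4.96 CPM and then at 63.7, 59.5 and 57.7 CPM; Ly6a, which encodes Sca-1, at 17.0, 15.7 and 17.1 CPM and then at 261, 234 and 318 CPM. Elf5, the alveolar progenitor factor, rose 5.34-fold and the secreted Wfdc18 4.55-fold. Csn3, the milk protein kappa-casein, fell from 33.0, 33.1 and 33.7 CPM to 0.535, 0.827 and 0.387 CPM, 57.1-fold lower, and Krt7 1.98-fold. Krt8 was at 68.7, 74.9 and 87.8 CPM and then at 58.2, 54.4 and 68.2 CPM, a fall of 0.35 ± 0.14 log2 whose call was lost without 2-month replicate 2 (-0.37) or 3 (-0.26), without 12-month replicate 1 (-0.33) or 2 (-0.28), and with no filter. Among basal genes Krt5 rose from 0.379, 0.453 and 0.309 CPM to 4.84, 6.87 and 5.45 CPM, and the contractile Myh11 and Mylk 3.36-fold and 2.46-fold. Myh11, like Acta2, is also on the pericyte and smooth muscle list below. Krt14 was at 21.2, 19.4 and 23.7 CPM against 25.1, 26.8 and 27.3 CPM (0.30 ± 0.15 log2, limma adjusted p = 0.0872), a difference that was called with quantile scaling, DESeq2, the replicate block and the KO libraries alone and without WT 2-month replicate 1, and Itga6 and Acta2 fell 1.61-fold and 1.32-fold. Summed basal markers were between 2266 and 2331 CPM at 2 months and between 2378 and 2548 CPM at 12 months. Krt5 and Krt14 were a small part of this sum, which also counts Vim, Acta2 and Myh11. It therefore does not measure basal epithelium alone.

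Endothelial markers, which all rose, had a median of 1.95 log2. Cdh5, VE-cadherin, was at 10.3, 8.87 and 9.59 CPM at 2 months and at 61.3, 56.4 and 63.2 CPM at 12 months, and Pecam1 at 20.3, 17.6 and 18.3 CPM and then at 99.3, 94.5 and 100.4 CPM. Cldn5 rose 6.44-fold and Esam 4.98-fold, both of endothelial junctions. Pericyte and smooth muscle markers had 8 of 11 higher and 2 lower (median 1.12); Abcc9 and Mcam rose 3.80-fold and 3.07-fold and Cspg4, the NG2 proteoglycan, fell 2.203-fold, and the summed level did not move apart (263 to 297 CPM against 283 to 294 CPM).

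Leukocyte markers moved in both directions. Mast cell genes had a median of 2.16 log2, with 0 lower: Mcpt4, a chymase, was at 0.243, 0.345 and 0.411 CPM and then at 8.54, 9.28 and 12.0 CPM, Cpa3, the mast cell carboxypeptidase, at 10.95, 10.9 and 11.1 CPM and then at 73.9, 74.8 and 80.8 CPM, and Fcer1a and Hdc, the IgE receptor chain and the histamine enzyme, rose 8.05-fold and 7.19-fold. The other leukocyte list had a median of -0.48, or -0.24 without 12-month replicate 2. Coro1a, a leukocyte actin regulator, fell from 13.5, 11.9 and 15.5 CPM to 1.73, 1.61 and 2.63 CPM, Tyrobp, the DAP12 adaptor, 3.21-fold, and Lyz2, lysozyme of macrophages and neutrophils, from 737, 671 and 640.5 CPM to 326, 177 and 340 CPM. S100a8, a neutrophil alarmin, rose 4.28-fold, and Mrc1, the mannose receptor, was at 97.96, 78.6 and 103 CPM and then at 233, 99.6 and 206 CPM, with its second older library inside the younger range.

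Mesenchymal markers also moved in opposite directions. Fibroblast markers had 6 of 17 higher (35.29%) and 8 lower (47.06%), beside 32.9% and 34.2% over all genes. Their median was -0.04 and lay between -0.21 and 0.003 under the alternatives. Leaving out any KO library but 2-month replicate 1 moved that median by more than 1.5 times. Col3a1 was at 5544, 4898 and 4693 CPM and then at 2210, 2576 and 2657 CPM, Dpt fell 3.23-fold and Fap, a protease of activated fibroblasts, 3.38-fold. Pi16 and Thy1 rose 5.57-fold and 2.33-fold. Skeletal muscle markers had 15 of 25 higher and 4 lower, with a median of 0.54, or 0.81 without 12-month replicate 2, and a sum of 463 to 504 CPM at 2 months against 1035 to 1916 CPM at 12 months. Ttn, titin, was at 242, 199 and 184 CPM and then at 1389, 731 and 1018 CPM, Myh3, embryonic myosin, at 8.71, 9.39 and 8.43 CPM and then at 39.1, 18.4 and 35.01 CPM, and Neb rose 2.83-fold, while Ckm and Mb, enzymes and oxygen carriers of mature fibres, fell 2.47-fold and 3.38-fold. The adipocyte list had 3 of 7 higher (42.86%) and 2 lower (28.57%), with a median of 0.32, or 0.18 without 12-month replicate 1. Plin4 and Fabp4 were 2.51-fold and 1.84-fold higher and Cebpa 1.28-fold lower. The Schwann and neural list had 3 of 9 higher (33.33%) and 0 lower, beside 32.9% and 34.2% over all genes. The median of that list, 0.05, lay between -0.04 and 0.21 under the alternatives and moved by more than 1.5 times without any KO library but 12-month replicate 1, and Erbb3, Pmp22 and Mbp rose 1.97-fold, 1.71-fold and 1.59-fold.

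**Figure D4:**
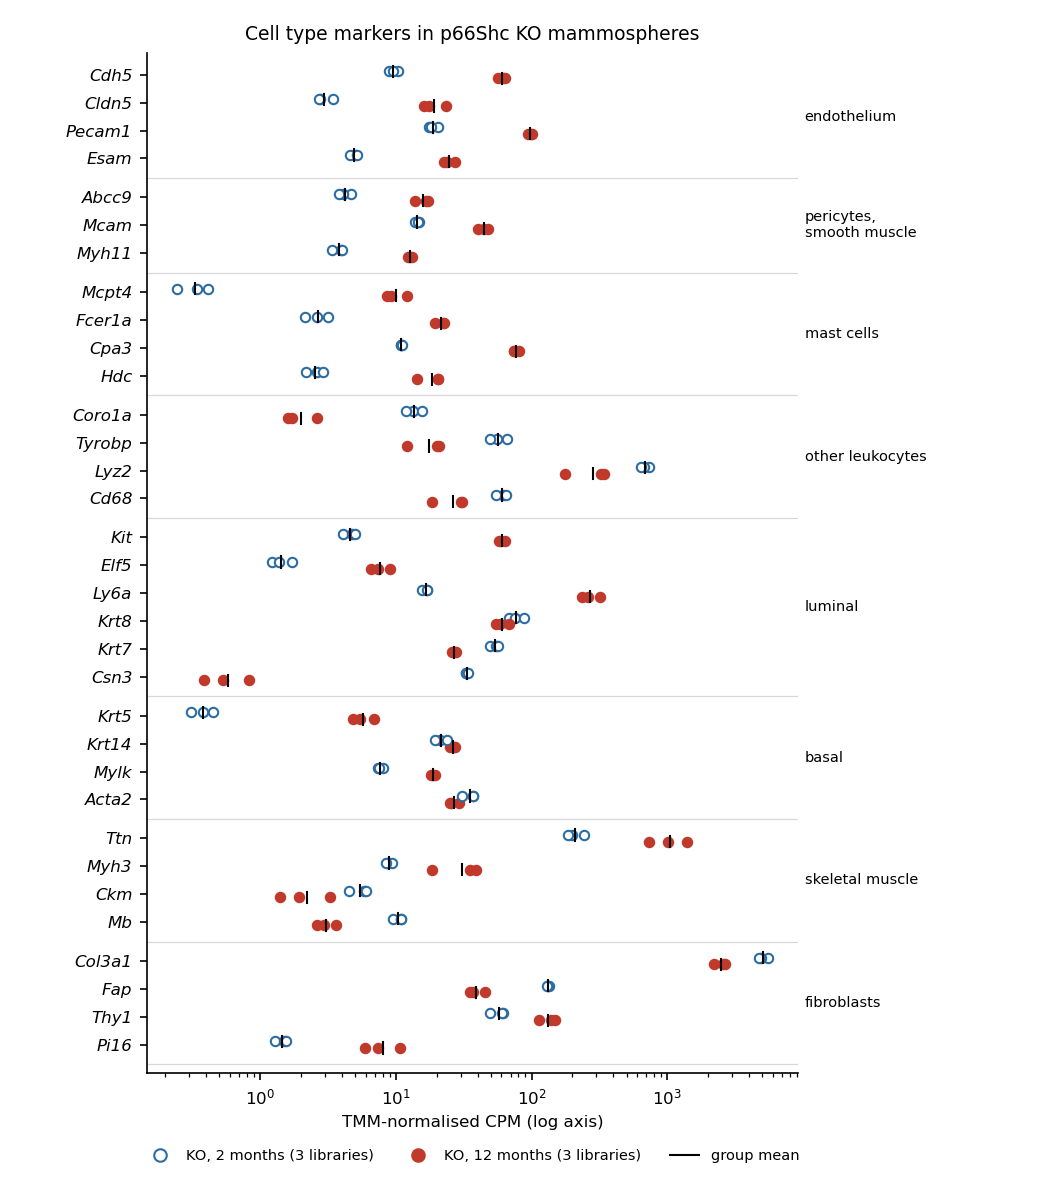
TMM-normalised CPM on a log axis for markers of 8 cell types in the 6 KO libraries, drawn as open points at 2 months, filled points at 12 months and bars for means. Endothelial and mast cell markers lie to the right at 12 months, the leukocyte markers shown to the left, and luminal, basal and muscle markers on both sides.

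Noncoding RNAs had 6 of 23 higher (26.09%) and 9 lower (39.13%), beside 32.9% and 34.2% over all genes, with a median of -0.13. Malat1, a nuclear-retained transcript, rose from 3928, 3773 and 3248 CPM to 11111, 9326 and 8695 CPM, and Snhg11 3.29-fold. Rian and Meg3, neighbours in the imprinted Dlk1-Dio3 domain on chromosome 12, fell together: Rian from 102, 96.0 and 93.3 CPM to 11.2, 11.4 and 9.57 CPM and Meg3 from 14.5, 17.2 and 16.02 CPM to 2.58, 3.07 and 2.70 CPM. Rpph1, the RNA of RNase P, was at 5066, 3622 and 7462 CPM and then at 978, 1036 and 2655 CPM, with the third library highest at both ages.

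Among the 20 largest falls were genes outside the lists above. Agtr2, the type 2 angiotensin receptor (chrX:21484624-21488833), was at 335, 304 and 297 CPM at 2 months and at 2.88, 5.13 and 1.99 CPM at 12 months, 93.6-fold lower (-6.43 ± 0.23 log2, limma adjusted p = 8.01e-11). Marco, a scavenger receptor of macrophages (chr1:120474538-120505084), went from 29.6, 27.4 and 36.4 CPM to 1.25, 1.11 and 1.34 CPM, and Nrep from 684, 680 and 567 CPM to 43.4, 45.4 and 28.3 CPM. Older libraries were far below younger ones in each. Several are best known from neurons: Nefl, a neurofilament subunit, fell 20.2-fold, Sh3gl3, endophilin A3, 21.2-fold, Cdh10, a cadherin, 12.8-fold and Grm7, a glutamate receptor, 10.3-fold. Arsi, Psg22, Tll2, Klhl4 and Edil3 fell 21.97-fold, 11.7-fold, 12.6-fold, 9.63-fold and 8.26-fold.

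The largest rises outside the lists above also came from several functions. Rarres2, the adipokine chemerin (chr6:48569698-48572670), was at 4.89, 4.40 and 5.25 CPM and then at 77.2, 79.0 and 114 CPM, and Chl1, a neural adhesion molecule (chr6:103510876-103733035), at 0.703, 0.777 and 0.771 CPM and then at 27.2, 15.9 and 31.4 CPM. Cxcr7, the scavenging receptor for CXCL12, rose 15.6-fold, Ahsg, the plasma protein fetuin-A, from 0.433, 0.432 and 0.309 CPM to 11.01, 10.2 and 16.7 CPM, and Fndc1 20.2-fold. Galnt15, a mucin-type glycosyltransferase, was at 0.946, 0.561 and 0.283 CPM and then at 12.6, 12.5 and 21.4 CPM.

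The KO age effect was set against the age effect in WT by the interaction, the KO log2 change minus the WT one. It was called for 8051 of 13961 genes (57.7%), 4388 with the larger value in KO (31.4%) and 3663 with the smaller (26.2%). WT columns were normalised in other TMM runs than the KO columns; with TMM recomputed over all 12 libraries the count was 8165, of which 7582 were shared. Between the ages in WT 8091 genes differed (58.0%), 3120 higher at 12 months (22.3%) and 4971 lower (35.6%). The median absolute log2 change was 0.36 in KO and 0.28 in WT. Of the 4589 genes that rose in KO, 1636 (35.65%) also rose in WT, which is 52.44% of the WT rises, 1313 (28.61%) fell there, 26.41% of the WT falls, and 3648 (79.49%) had a called interaction. Of the 4769 that fell in KO, 2246 (47.1%) also fell in WT, 45.18% of the WT falls, 511 (10.72%) rose there, 16.38% of the WT rises, and 2582 (54.14%) had a called interaction.

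Division genes fell in both genotypes. The G2/M median was -1.46 in WT and 50 of 50 genes were called lower there, and the interaction was called for 16 of 50. Replication-dependent histones fell less in WT, with 29 of 52 lower and 1 higher (median -0.85). Summed histone levels overlapped between the ages in WT, at 1253 to 2362 CPM at 2 months and 1141 to 1369 CPM at 12 months. The interaction was lower in KO for 34 histone genes and higher for 2. Interferon effectors differed, with 1 of 51 higher and 33 lower in WT (median -0.39) and 49 interactions called, all with the larger value in KO. Oas3 averaged 4.41 CPM at 2 months and 3.94 CPM at 12 months in WT. C3 averaged 190 and 188 CPM in WT and its interaction was 3.31 log2, and Serpina3m averaged 8.43 and 10.3 CPM in WT with an interaction of 3.98. C3 did not pass the test with age in WT (limma adjusted p = 0.887), and Serpina3m rose there by 0.28 log2. Acute-phase genes as a list also rose in WT, with 11 of 19 higher and 2 lower (median 0.49). NF-kB subunits and feedback genes had 18 of 26 higher and 4 lower there (median 0.40). Immediate-early genes had 14 of 32 higher and 7 lower (median 0.16). The interaction was higher in KO for 11 acute-phase and 19 NF-kB genes and lower for 3 and 1.

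Luminal markers differed with the smaller value in KO, and skeletal muscle and mast cell markers with the larger. Luminal markers had 29 of 30 higher in WT (median 2.89), and 25 interactions had the smaller value in KO. Csn3 averaged 34.7 CPM at 2 months and 120 CPM at 12 months in WT, the reverse of its fall in KO (interaction -6.76 log2), and Krt8 48.8 and 505 CPM (-3.73). Skeletal muscle markers fell in 25 of 25 cases in WT (median -2.29), and Ttn averaged 711 and 145 CPM there (interaction 4.58). Mast cell markers fell in 10 of 11 in WT (median -1.17), with Cpa3 at 47.7 and 11.5 CPM and Mcpt4 at 4.65 and 0.346 CPM, against their rises in KO (interactions 4.75 and 6.24). Arg1, an arginase of alternatively activated macrophages, averaged 8.203 and 56.05 CPM in WT and fell from 19.4, 16.4 and 22.9 CPM to 3.21, 3.26 and 2.76 CPM in KO (interaction -5.18).

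**Figure D5:**
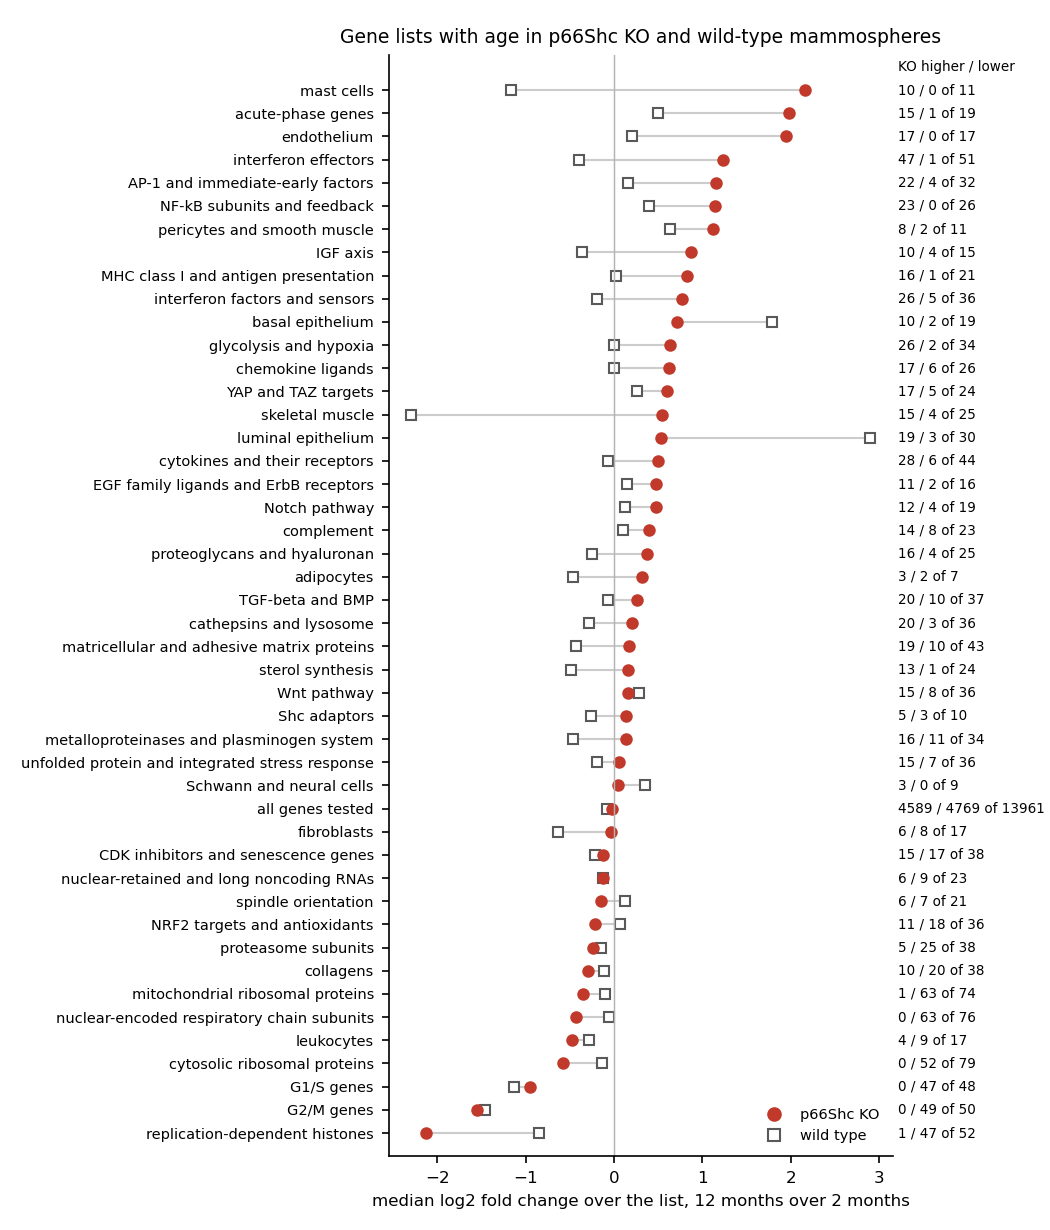
Median log2 fold change with age for each of the 45 gene lists and all genes tested, with filled circles for KO and open squares for WT, ordered by the KO value; the right column gives the KO genes called higher and lower of those tested. Division lists sit together in both genotypes, and mast cell, interferon, skeletal muscle and luminal lists sit far apart.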

How the data were processed

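Total RNA of mammospheres was isolated with the PicoPure kit and made into libraries with the TruSeq Stranded total RNA kit, per the labels' protocols. The submitters' processing notes name TopHat2 (2.1.0), Bowtie2 (2.2.4), SAMtools (0.1.18) and HTSeq (0.6.1p1), and the build mm10. Which annotation, strand setting and treatment of multiply mapped reads they used was not stated, so genes that overlap on opposite strands may share reads. Per the file headers, the deposited signal values are CPM that the authors scaled by TMM with edgeR. The KO columns matched a TMM run on the 6 KO libraries alone. Dividing each value by that of 1 read gave whole reads for 100% of values within 0.1 read, and totals of 31845169 to 109079737 reads over the 12 libraries. A count of 3 reads stood for 0.029 to 0.0859 CPM.

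Values were taken as log2(CPM + 0.5) for genes averaging 0.5 CPM or more. A linear model of the 4 groups, with 8 residual degrees of freedom and a mean-variance trend, was fitted in limma 3.58.1 (R 4.3.3). The p-values were adjusted by Benjamini-Hochberg over all 13961 genes. The same model was run on simulated counts in which few genes changed, which does not check a case where most genes change. The design named a test for normalised values, which was used for these CPM. Alternatives were other pseudocounts, filters and scalings, thinned reads, edgeR 4.0.16 and DESeq2 1.42.0 on the recovered reads, a replicate block, the KO libraries alone and each library left out.

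The comparison, the 45 gene lists and the tests were chosen with earlier results of these data known. Lists are described by counts and medians, without a test. Genes were named among those changed with at least 5 CPM in the higher group: the 20 largest rises and falls, up to 4 members per list in its main direction and up to 2 in the other, and the 8 largest interactions each way, leaving out predicted genes, with Shc1, Insc, Trp53, Cdkn1a, Mdm2, Myc and Mki67 whatever their result. Not all genes the rule allows are described. Cxcl3, Lifr, Il6st, Socs3, Il33, Nfkbia, Serpina3n, C1s, C1qb, C1qc, Rsad2, Krt18, Krt14, Epcam, Il6ra, Il11ra1 and Serpina3g were added after their values were seen. Gene coordinates are those deposited, on mm10, and promoter windows are from RefSeq on GRCm38.p6.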

Additional observations from a re-analysis of the deposited data

Results flagged for a closer look

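Each result here is listed because the age effects in KO and in WT differed in the interaction test. Values are log2, KO minus WT, with limma adjusted p under 0.05. That test called 8051 genes. Among named genes, the signed change was higher in KO for Mcpt4 (6.24), Myh3 (5.01), Cpa3 (4.75), Ttn (4.58), Hdc (4.16), Rarres2 (4.12), Chl1 (4.08) and Serpina3m (3.98). These include mast cell enzymes and sarcomere proteins: at 2 months Mcpt4, a mast cell protease, averaged 4.65 CPM in WT and 0.333 CPM in KO, and Ttn 711 CPM and 208 CPM. The signed change was lower in KO for Csn3 (-6.76), Arg1 (-5.18), Krt7 (-3.96), Krt8 (-3.73), Lad1 (-3.68), Chi3l3 (-3.67), Arsi (-3.50) and Marco (-3.46). A lower signed change is not a smaller one, since Csn3 fell in KO and rose in WT. Krt7, Krt8 and Lad1, a basement membrane anchor of epithelia, rose with age in WT and fell in KO, and Chi3l3, a chitinase-like protein of macrophages, averaged 4.77 CPM at 2 months and 45.9 CPM at 12 months in WT and 23.4 and 16.2 CPM in KO. Groups of 3 libraries were too small for a test of single outlying libraries.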

How the results depend on the processing

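All alternatives were set down with earlier results of these data known. The number of genes changed with age in KO lay between 8484 and 10000 under other pseudocounts, filters, scalings, read thinning, tools and the KO-only fit, and between 8546 and 9749 when any 1 library was left out (rises 4263 to 4738, falls 4262 to 5011). The share of rises among calls ran from 46.14% with quantile scaling to 52.2% with DESeq2. The interaction count lay between 7271 and 8519, and between 7344 and 8273 with 1 library left out. Replicate numbers occur in every group, and whether they pair the libraries was not settled. Deviations of same-numbered KO libraries correlated at 0.0958, 0.082 and 0.335, and those of differently numbered ones at -0.225 to 0.147. A fit with a replicate block called 9681 genes in KO. Of the 254 genes named, 248 to 254 had the same direction and side of the threshold with age in KO under each alternative. Cdkn1a reversed from 0.08 to -0.031 log2 with quantile scaling, with no call in either. Medians of lists moved by more than 1.5 times in places: with quantile scaling to 0.06 for lysosome genes and metalloproteinases, 0.04 for matricellular proteins, 0.07 for sterol synthesis and Shc adaptors and -0.36 for the proteasome; without the filter to 0.17 for complement, 0.13 for proteoglycans, 0.05 for adipocytes and 0.01 for leukocytes; at a mean of 2 CPM to 0.79 for complement, 0.77 for cytokines, 0.34 for metalloproteinases and 0.28 for basal epithelium; with edgeR and DESeq2 to 0.81 and 0.85 for EGF ligands and 0.71 and 0.75 for complement; and to 0.23 for metalloproteinases with DESeq2 and 0.62 for complement with a pseudocount of 0.1. The cause was not tested. Depth limits genes of few reads, such as Insc.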
